A study of Caenorhabditis elegans with 12 samples.

Results

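The vitellogenin genes vit-1, vit-2, vit-3, vit-4, vit-5 and vit-6 of Caenorhabditis elegans were followed in RNA from whole mid L4 larvae of 2 let-7 mutants and their controls. They were taken by exact gene name, and all 6 were found among the 46711 entries that the deposited count tables share. Vitellogenins are yolk proteins. In C. elegans the adult hermaphrodite intestine makes and secretes them, and growing oocytes take them up from the body cavity through the receptor RME-2. The genes are nearly silent in young larvae and are switched on as animals become adult, so their transcripts are used as an intestinal mark of the passage to adulthood. The microRNA let-7 belongs to the heterochronic pathway that times this change of stage, and its substituted bases here lie in its 3′ part, outside the seed.

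Each of 4 groups had 3 libraries, lettered A to C. The U13A mutant was strain VT3878, lin-41(tn1541ma480);let-7(ma432), set against strain DG3913, lin-41(tn1541). Both strains of that contrast thus carry lin-41(tn1541), and the mutant carries a further lin-41 change. The label of the mutant says that what is downstream of lin-41 is left out. Effects of the let-7 change and of the further lin-41 change cannot be told apart in that contrast. The U18A mutant was strain VT3797, maIs105;let-7(ma435), set against strain VT1367, maIs105. Both strains of that contrast carry the transgene maIs105. Each group is 1 strain. Larvae grew at 20 °C and were collected 45 h after feeding, with the stage checked by microscopy, and the RNA aliquots came from harvests made for ribosome profiling. The labels do not say that libraries A to C came from separate cultures, so the p-values measure the spread between these libraries, which may be technical.

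U13A libraries held 16659340 to 21414080 counts each, and U18A libraries held 6107652 to 9607239. The 3 most abundant entries of a table took 65.6% to 76.8% of the counts in the U13A libraries and 13.8% to 20.4% in the U18A libraries. Levels in CPM (reads of a gene divided by the TMM-scaled size of its library and put on a fixed scale) were therefore compared within a table only, and table and contrast cannot be told apart. The U13A control library C stood apart from the other libraries, with a TMM factor of 0.577 against 1.02 to 1.22 in the other 5 of its table. Its 6 vitellogenin genes summed to 11594 counts, and in the other 11 libraries the sum was 25741 or more.

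Coordinates are those of the WBcel235 assembly, Ensembl release 115. The genes vit-1 to vit-5 lie on the X chromosome and vit-6 lies on chromosome IV. vit-1 is at X:7727889-7733168 and vit-2 at X:5101042-5106169, both on the plus strand. vit-4 at X:3558769-3563965 and vit-3 at X:3567355-3572549 stand in a row on the minus strand, 3389 bases apart with no annotated gene between them. vit-5 at X:3403471-3408603, on the plus strand, lies 150165 bases from vit-4. vit-6 is at IV:8261157-8266459 on the plus strand. The 6 genes have 5 or 6 exons, and their exons sum to between 4870 and 5088 bases, so the members are close in length. vit-1 and vit-2 are close paralogs, as are vit-3, vit-4 and vit-5, and how reads that match several of them were assigned is not given in the sources used here. The counts of single members are uncertain for that reason. Short antisense overlaps with annotated genes exist at vit-2, vit-3 and vit-4, and those genes had 0 to 3 counts in every library. The strand setting of the counting is not given, so these low counts cannot show whether the overlaps affected the vitellogenin counts.

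The members of the family kept a fixed order of levels at mid L4. Among the genes ranked below, vit-6 and vit-2 were abundant transcripts and vit-4 was near the median. Per kilobase of exon, the order was vit-6, vit-2, vit-1, vit-5, vit-3 and vit-4, from high to low, in 12 of 12 libraries. vit-6, which encodes a precursor that is cut into a pair of smaller yolk proteins, averaged 156 CPM per kilobase in U13A mutants, 128 in U13A controls, 573 in U18A mutants and 360.0 in U18A controls. vit-4 averaged 3.69 CPM per kilobase in U13A mutants, 2.56 in U13A controls, 17.9 in U18A mutants and 14.0 in U18A controls. The member with the highest level thus exceeded the lowest 42.4 times in U13A mutants, 50.1 times in U13A controls, 31.9 times in U18A mutants and 25.8 times in U18A controls.

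vit-6 ranked 232 in U13A mutants and 246 in U13A controls among 10437 genes ordered by CPM per kilobase. It ranked 208 in U18A mutants and 314 in U18A controls among 10997 genes. Only tested genes with an annotated exon length were ranked, out of 12044 tested in U13A and 12689 in U18A. vit-4 ranked 4450 in U13A mutants and 5643 in U13A controls, and 3851 in U18A mutants and 4549 in U18A controls. The family thus spans from near the top of the list to near its middle. Most neighbours in the order were apart in every group. In U13A controls vit-6 (94.3 to 159 CPM per kilobase) overlapped with vit-2 (81.3 to 127), and vit-1 (22.8 to 35.9) overlapped with vit-5 (14.3 to 28.6). In U18A controls vit-1 (77.5 to 121) overlapped with vit-5 (57.1 to 79.6).

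In the U18A contrast, 4 of the 6 vitellogenin genes rose in the mutant, namely vit-1, vit-2, vit-5 and vit-6, by 1.51 to 1.79 times. vit-3 and vit-4 were also on the higher side but did not pass the threshold of an adjusted p of 0.05. Over all 12689 genes tested, 8.16% passed in either direction, 2.29% as higher and 5.88% as lower. All 6 vitellogenin genes had an unadjusted p under 0.05, against 21.5% of the genes tested. All 6 genes passed the filter on low counts in both tables. The summed level of the 6 genes was 7007, 6179 and 6765 CPM in U18A mutants A, B and C, against 3925, 3995 and 4935 CPM in U18A controls. The sum was 1.55 times as high in the mutant and the groups did not overlap. As a share of all counts it was 0.595% to 0.758% in U18A mutants and 0.387% to 0.488% in U18A controls.

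vit-6 had 2999, 2699 and 3010.0 CPM in U18A mutants A, B and C, against 1647, 1750.0 and 2072 CPM in U18A controls. Every mutant library lay above every control library. The change was 0.67 ± 0.11 on the log2 scale (SE), with an adjusted p of 0.001 by edgeR's quasi-likelihood test. The call held in 13 of 13 alternative settings.

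vit-2, which like vit-1 and vit-3 to vit-5 encodes a large yolk protein, had 2348, 2016 and 2109 CPM in U18A mutants, against 1331, 1369 and 1577 CPM in U18A controls. The groups did not overlap, and the log2 change was 0.60 ± 0.11 with an adjusted p of 0.00152 (edgeR). This call too held in 13 of 13 settings. Its paralog vit-1 had 798, 696 and 736 CPM in U18A mutants, against 458, 394 and 617 CPM in U18A controls. Here too the groups did not overlap, and the log2 change was 0.60 ± 0.14 with an adjusted p of 0.0167 (edgeR). The vit-1 call was lost without mutant A (adjusted p 0.078), mutant C (0.286), control A (0.0767) or control B (0.0535).

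vit-5 showed the highest fold of the family in this contrast. It had 580.3, 494 and 613 CPM in U18A mutants, against 278, 278 and 388 CPM in U18A controls. The mutant libraries all lay above the controls, the log2 change was 0.84 ± 0.13, and the adjusted p was 0.00105 (edgeR). Without mutant C the call was lost (adjusted p 0.11).

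vit-3 and vit-4, the neighbours on the minus strand of the X chromosome, had the smallest log2 changes of the family here. vit-3 had 193, 188 and 204 CPM in U18A mutants, against 154, 142 and 195 CPM in U18A controls, and vit-4 had 88.0, 85.2 and 92.5 CPM in U18A mutants, against 58.5, 61.1 and 87.0 CPM in U18A controls. For both genes control C reached into the range of the mutants while controls A and B lay below it. The log2 changes were 0.25 ± 0.10 for vit-3 (adjusted p 0.146) and 0.35 ± 0.13 for vit-4 (adjusted p 0.12) by edgeR. Without control C both passed, with adjusted p of 0.0119 and 0.000933 (edgeR). For each gene this was the only 1 of 6 fits leaving out a library that passed. In the others the adjusted p reached 0.498 for vit-3 and 0.437 for vit-4 (edgeR). The median log2 change of the 6 genes was 0.60, beside a median of 0.01 over all genes tested.

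**Figure D1:**
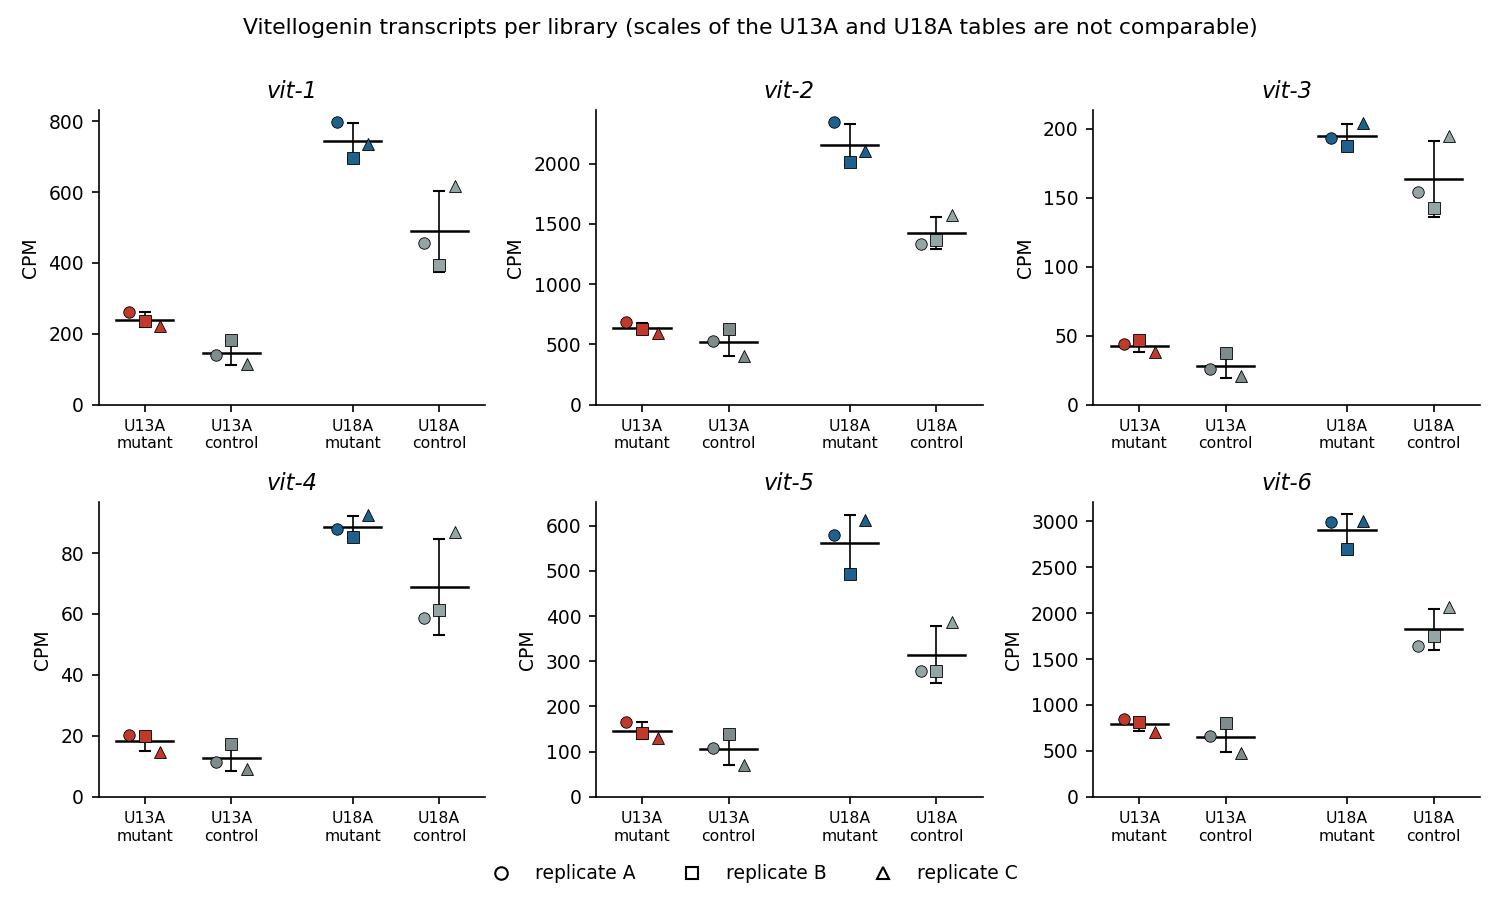
CPM of each vitellogenin gene (vertical axis) in every library of the 4 groups (horizontal axis), with replicate letters as symbols, the group mean as a line and the SD as a bar (n = 3). In the U18A contrast the mutant libraries of vit-1, vit-2, vit-5 and vit-6 all lie above the controls, and in the U13A contrast this holds for vit-1 and vit-3.

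In the U13A contrast no vitellogenin gene passed the threshold by edgeR, though all 6 were on the higher side in the mutant. At an unadjusted p under 0.05 there were 3 of the 6, where 12.6% of the 12044 genes tested reached that level, and DESeq2 called 1 of the 6 (vit-1), where it called 1.99% of 11110 genes. The share of genes called by edgeR was 1.55% in either direction, 0.731% as higher and 0.822% as lower. Mutant and control libraries did not overlap, with the mutant higher, for 2 of the 6 genes, against 9.8% of all genes tested. In the U18A contrast 4 of the 6 did so, against 12.3% of all genes. A log2 change above 0 was found in 48.6% of all genes in the U13A contrast and in 51.0% in the U18A contrast. The summed level was 2027, 1878 and 1704 CPM in U13A mutants A, B and C, against 1473, 1806 and 1094 CPM in U13A controls. The sum was 1.28 times as high in the mutant, and control B lay among the mutants.

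vit-1 had the highest fold in this contrast, 1.64. It had 262, 235 and 222 CPM in U13A mutants, against 138, 183 and 116 CPM in U13A controls. Every mutant library lay above every control library. The log2 change was 0.72 ± 0.18 with an adjusted p of 0.0777 (edgeR). By edgeR it passed without control C, at a log2 change of 0.57 (adjusted p 0.0124), and without control B, at 0.91 (adjusted p 0.0249). It did not pass without mutant A (adjusted p 0.383), mutant B (0.283), mutant C (0.152) or control A (0.281), by edgeR. By DESeq2 it passed (adjusted p 0.0084). In all it passed in 6 of 13 alternative settings.

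vit-3 was the other gene whose groups were apart. It had 43.6, 46.5 and 38.0 CPM in U13A mutants, against 25.7, 37.4 and 20.6 CPM in U13A controls, with mutant C only just above control B. The log2 change was 0.60 ± 0.19 (adjusted p 0.178, edgeR). vit-4 had 20.2, 19.8 and 14.6 CPM in U13A mutants, against 11.3, 17.4 and 9.15 CPM in U13A controls. Its groups overlapped, and its log2 change was 0.50 ± 0.22 (adjusted p 0.385). Without control B, the control nearest to the mutants, both passed by edgeR, vit-3 at an adjusted p of 0.015 and vit-4 at 0.0383. For each gene this was the only 1 of 6 fits leaving out a library that passed. In the others the adjusted p reached 0.495 for vit-3 and 0.72 for vit-4 (edgeR).

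The most abundant members had the smallest log2 changes. vit-6 had 850.0, 812 and 710 CPM in U13A mutants, against 663, 805 and 478 CPM in U13A controls. vit-2 had 684, 623 and 590.3 CPM in U13A mutants, against 527, 625 and 401 CPM in U13A controls. In both genes control B lay within the range of the mutants. The log2 changes were 0.29 ± 0.21 for vit-6 (adjusted p 0.635) and 0.29 ± 0.20 for vit-2 (adjusted p 0.595) by edgeR. They were 0.10 and 0.13 without control C, and 0.47 and 0.45 without control B, and did not pass in either case. vit-5 had 167, 142 and 130.0 CPM in U13A mutants, against 107, 139 and 69.6 CPM in U13A controls, and these groups overlapped too. Its log2 change was 0.47 ± 0.22 (adjusted p 0.403, edgeR), with 0.24 without control C and 0.72 without control B. The median over the 6 genes was 0.49, beside -0.01 over all genes tested.

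**Figure D2:**
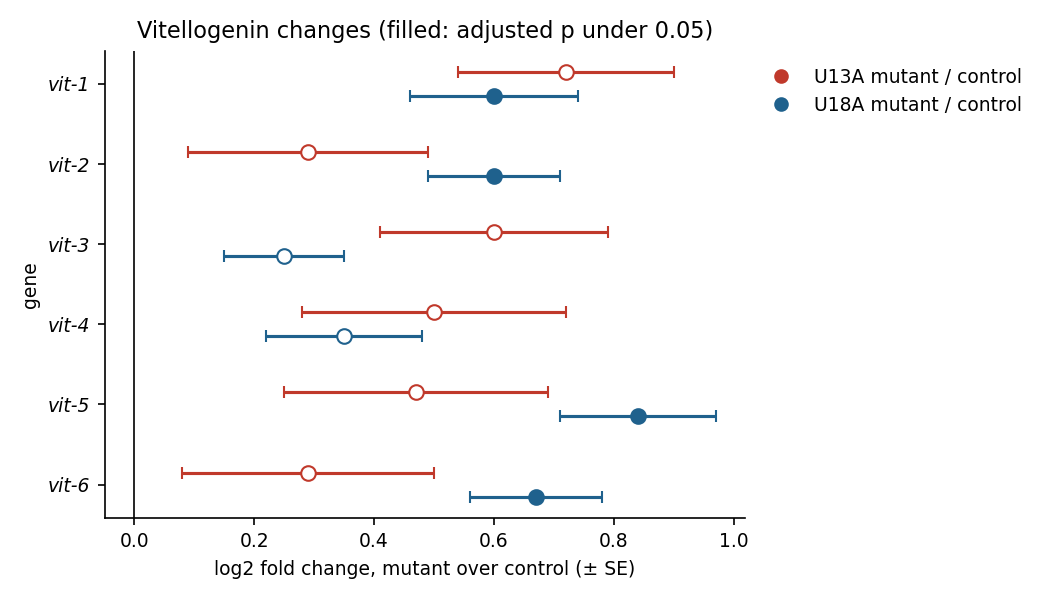
Log2 fold change of mutant over control (horizontal axis) with its SE for each vitellogenin gene (vertical axis), in the U13A contrast (red) and the U18A contrast (blue); filled points passed an adjusted p of 0.05 by edgeR. All 12 points lie above 0, the U13A points between 0.29 and 0.72 and the U18A points between 0.25 and 0.84.

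The mutant effects of the 2 contrasts were set against each other in 1 fit to all 12 libraries. No vitellogenin gene passed, none had an unadjusted p under 0.05, and DESeq2 called none either, where edgeR called 1.96% of 14155 genes in either direction, 1.62% with the higher change in U13A, and 12.2% had an unadjusted p under 0.05. The U13A change exceeded the U18A change by 0.37 ± 0.24 for vit-3 (log2, SE), 0.16 ± 0.30 for vit-4 and 0.14 ± 0.23 for vit-1. It fell short of it by values of -0.36 ± 0.24 for vit-6, -0.35 ± 0.29 for vit-5 and -0.29 ± 0.22 for vit-2. The adjusted p-values ran from 0.60 to 0.89 (edgeR).

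Sums of close paralogs do not depend on which copy of a sum a read was given to. The log2 change of vit-1 and vit-2 together was 0.39 ± 0.20 (SE) in U13A mutants and 0.60 ± 0.12 in U18A mutants, each over its own control. That of vit-3, vit-4 and vit-5 together was 0.50 ± 0.21 in U13A mutants and 0.63 ± 0.12 in U18A mutants. The sums hide the spread within each pair or trio, since vit-5 holds most of the counts of its trio.

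The make-up of the vitellogenin pool, each gene as a share of the summed vitellogenin counts of the same library, does not depend on the scaling of libraries. vit-6 was the largest component everywhere. It made up 41.9%, 43.2% and 41.6% of the pool in U13A mutants A, B and C, against 45.0%, 44.6% and 43.7% in U13A controls, so every mutant library lay below the controls. In the U18A contrast it made up 42.8%, 43.7% and 44.5% in mutants, against 41.9%, 43.8% and 42.0% in controls, and the groups overlapped. vit-2 averaged 33.9% ± 0.726 in U13A mutants and 35.7% ± 1.04 in U13A controls, and 32.4% ± 1.18 in U18A mutants and 33.4% ± 1.24 in U18A controls (SD, n = 3 each), with overlap in both contrasts.

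The share of vit-3 lay on opposite sides of its control in the contrasts. It was 2.15%, 2.48% and 2.23% in U13A mutants, against 1.74%, 2.07% and 1.88% in U13A controls, so the mutant libraries were all higher. In U18A mutants it was 2.76%, 3.04% and 3.02%, against 3.92%, 3.56% and 3.94% in U18A controls, so the mutant libraries were all lower. vit-4, its neighbour, had the same pattern with overlap in U13A. Its share was 0.996%, 1.06% and 0.854% in U13A mutants, against 0.766%, 0.964% and 0.837% in U13A controls. In U18A mutants it was 1.26%, 1.38% and 1.37%, against 1.49%, 1.53% and 1.76% in U18A controls, without overlap. The counting error of these shares is small, with a 95% Wilson interval of 2.02% to 2.29% for vit-3 in U13A mutant A, for example. Such an interval does not cover how reads that match several paralogs were assigned.

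The share of vit-1 was higher in every U13A mutant library than in any of its controls. It was 12.9%, 12.5% and 13% in U13A mutants, against 9.4%, 10.1% and 10.6% in U13A controls, while in U18A mutants it was 11.4%, 11.3% and 10.9%, against 11.7%, 9.88% and 12.5% in U18A controls. The first pair of groups was apart and the second overlapped. vit-5 averaged 8.45% ± 0.555 in U18A mutants and 7.3% ± 0.483 in U18A controls, without overlap, and 7.8% ± 0.369 in U13A mutants and 7.11% ± 0.68 in U13A controls, with overlap (SD, n = 3 each). Within 1 contrast an exact 2-sided permutation test over 3 against 3 libraries cannot go below p = 0.1, which is the value of every pair of groups without overlap.

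Set side by side as mutant minus control, the vit-3 share differed by 0.388 percentage points in U13A and by -0.87 points in U18A, and the vit-4 share by 0.113 and -0.261 points. The vit-6 share differed by -2.15 points in U13A and by 1.08 points in U18A, and the vit-1 share by 2.78 and -0.164 points. These shares were singled out after they had been seen, so the differences between the contrasts are given as a description and were not tested. The U13A value minus the U18A value was 1.26 points for vit-3 and 1.16 to 1.38 points when 1 library was left out. The fit of fold changes across all genes called none of these genes for a difference between the contrasts.

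**Figure D3:**
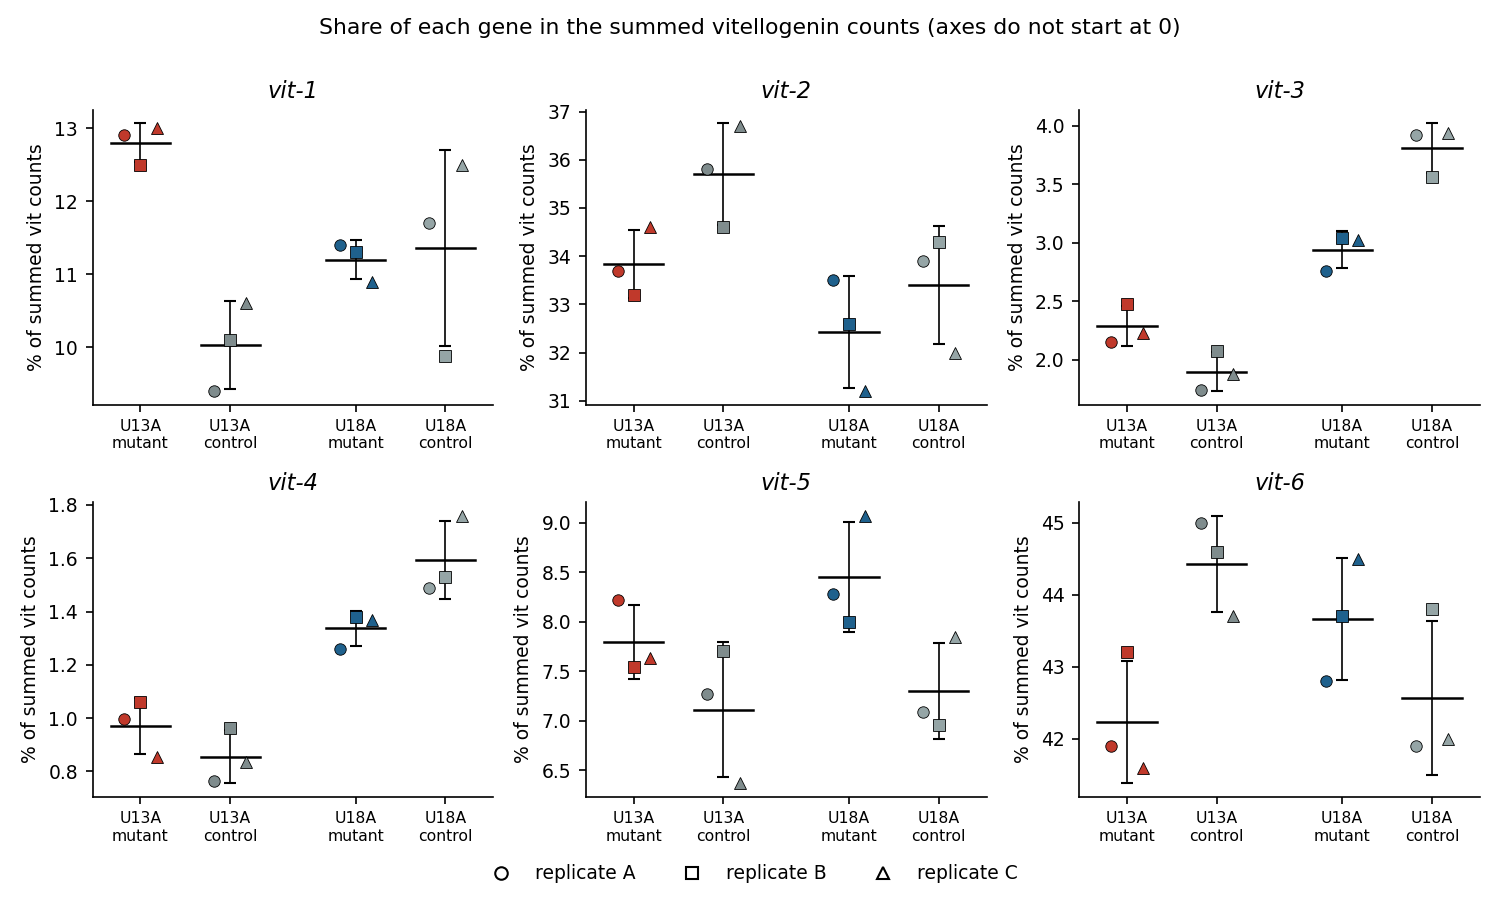
Share of each vitellogenin gene in the summed vitellogenin counts of a library (vertical axis, percent, not starting at 0) in the 4 groups (horizontal axis), with replicate letters as symbols, means as lines and SD as bars (n = 3). The vit-3 share lies at 2.15% to 2.48% in U13A mutants, above the 1.74% to 2.07% of their controls, and at 2.76% to 3.04% in U18A mutants, below the 3.56% to 3.94% of their controls.

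The 6 genes varied together across libraries. After centring log2 CPM within each table, Pearson's r between pairs of members over the 12 libraries ran from 0.793 (vit-2 with vit-3) to 0.989 (vit-6 with vit-2 and with vit-5), and it was 0.965 between vit-3 and vit-4. These values are descriptions, since the genes share their libraries, their depth and the mutant effect. Among 5243 other genes with a mean of at least 5 CPM in each table, the median r with the summed vitellogenin level was 0.046, and 36 genes exceeded 0.9. The 5 with the highest r were D1086.6 (0.959), Y62H9A.5 (0.957), col-8 (0.951), col-124 (0.951) and hpo-34 (0.946). col-8 and col-124 are cuticle collagen genes.

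D1086.6 had 31.5, 34.9 and 35.9 CPM in U18A mutants, against 19.1, 19.6 and 25.9 CPM in U18A controls, and 9.23, 8.66 and 6.8 CPM in U13A mutants, against 6.94, 7.4 and 4.62 CPM in U13A controls. D1086.6 and the other 4 genes were chosen for their likeness to the vitellogenin sum over the same libraries, so a shared order of libraries is part of that choice. The U18A log2 change was 0.65 ± 0.12 for D1086.6 (adjusted p 0.00216, edgeR) and 0.54 ± 0.13 for Y62H9A.5 (0.0179). It was 0.71 ± 0.16 for col-8 (0.0183) and 0.46 ± 0.09 for col-124 (0.00408). These 4 genes passed as higher, where 2.29% of all genes tested did, and the way they were chosen favours such calls. hpo-34 did not pass (0.16 ± 0.08, adjusted p 0.258). None of the 5 passed in the U13A contrast, where log2 changes were 0.11 to 0.54 and adjusted p-values 0.203 to 0.783.

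Genes known to control vitellogenin transcription mostly did not pass. Of 9 regulators, none was called in the U13A contrast, with none at an unadjusted p under 0.05 and none by DESeq2. In the U18A contrast 1 was lower (lin-29) and none was higher, 3 had an unadjusted p under 0.05, and DESeq2 called none. Among all genes of that contrast 5.88% were called as lower and 21.5% had an unadjusted p under 0.05. Median log2 changes of the regulators were 0.00 in U13A and -0.01 in U18A. unc-62, a homeodomain factor required for vitellogenin expression, averaged 33.8 ± 3.39 CPM in U13A mutants and 33.9 ± 1.55 CPM in U13A controls, and 106 ± 15.7 CPM in U18A mutants and 121 ± 3.48 CPM in U18A controls (SD, n = 3 each). Its log2 change was 0.00 ± 0.12 in U13A and -0.20 ± 0.10 in U18A (adjusted p 0.993 and 0.244, edgeR).

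ceh-60, the PBX-type partner of unc-62 at the vitellogenin genes, was scarce. It had 4.33, 6.29 and 4.69 CPM in U18A mutants, against 2.84, 3.26 and 3.9 CPM in U18A controls. The mutant libraries were all higher, but the log2 change of 0.57 ± 0.23 did not pass (adjusted p 0.157, edgeR). In U13A it averaged 0.696 ± 0.165 CPM in mutants and 0.767 ± 0.424 CPM in controls (SD, n = 3 each; adjusted p 0.815). elt-2, the main GATA factor of the intestine, had log2 changes of 0.24 ± 0.18 in U13A (adjusted p 0.635) and -0.16 ± 0.17 in U18A (adjusted p 0.637) by edgeR.

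lin-29, the zinc-finger factor that ends the heterochronic pathway and is needed for the adult programme, fell in the U18A mutant while the vitellogenin genes above rose. It had 11.5, 12.1 and 10.4 CPM in U18A mutants, against 16.1, 14.7 and 16.7 CPM in U18A controls, without overlap. The log2 change was -0.50 ± 0.14 (adjusted p 0.0288, edgeR). DESeq2 did not call it (adjusted p 0.114), and of the 6 fits that each left out a library only the one without mutant A called it (adjusted p 0.0488, against up to 0.106 in the others). In U13A it averaged 5.86 ± 0.23 CPM in mutants and 4.47 ± 1.54 CPM in controls (SD, n = 3 each), with a log2 change of 0.33 ± 0.21 (adjusted p 0.564, edgeR). The U13A change minus the U18A change was 0.84 ± 0.25 for lin-29, which did not pass (adjusted p 0.0875, edgeR).

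Of 11 genes of the TGF-beta, insulin and TORC2 signals that act on vitellogenin expression, none was called in either contrast by edgeR, none had an unadjusted p under 0.05, and DESeq2 called none. Their median log2 changes were 0.05 in U13A and 0.03 in U18A. Yolk carries lipid, and 13 genes of yolk lipid loading and fatty acid synthesis were examined. edgeR called none in either contrast, with 6 at an unadjusted p under 0.05 in U13A and 1 in U18A, and DESeq2 called 1 in U13A (fasn-1) and none in U18A. Among all genes 12.6% had an unadjusted p under 0.05 in U13A and 21.5% in U18A. The count of 0 in U13A was 3 with all 12 libraries in 1 fit, and 2 with no count filter or without control C. In U13A 12 of the 13 were on the higher side, with a median log2 change of 0.26. In U18A 7 of the 13 were, with a median of 0.05. dsc-4, the microsomal triglyceride transfer protein that loads lipid onto lipoproteins, had log2 changes of 0.20 ± 0.15 in U13A and 0.08 ± 0.08 in U18A (adjusted p 0.635 and 0.643, edgeR).

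fasn-1, the fatty acid synthase, was the 1 gene of that list called for a difference between the contrasts. The difference was above 0 for 12 of the 13 genes, with a median of 0.20, beside 0.01 over all genes tested. Of the 13, 5 had an unadjusted p under 0.05, against 12.2% of all 14155 genes. Among all genes edgeR called 1.62% with the higher change in U13A. fat-7, a fatty acid desaturase, had a difference of 0.93 ± 0.28 that did not pass (adjusted p 0.0932, edgeR). fasn-1 had 212, 197 and 196 CPM in U13A mutants, against 137, 139 and 113 CPM in U13A controls, and 558, 538 and 521 CPM in U18A mutants, against 692, 592 and 584 CPM in U18A controls. The U13A mutant libraries were all above their controls and the U18A mutant libraries all below theirs. The U13A change minus the U18A change was 0.87 ± 0.17 on the log2 scale (adjusted p 0.00636, edgeR), and it passed in 18 of 18 alternative settings. The separate changes were 0.64 ± 0.15 in U13A (adjusted p 0.0532) and -0.21 ± 0.09 in U18A (adjusted p 0.193). Without U13A control C the U13A change passed (0.55, adjusted p 0.00555).

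On the side of uptake, none of 8 genes was called by edgeR in either contrast, none had an unadjusted p under 0.05, and DESeq2 called none. Median log2 changes were 0.23 in U13A and 0.03 in U18A. rme-2, the yolk receptor of oocytes, averaged 77.3 ± 1.93 CPM in U13A mutants and 62.4 ± 12.9 CPM in U13A controls, and 370.0 ± 28.4 CPM in U18A mutants and 346 ± 14.4 CPM in U18A controls (SD, n = 3 each). The log2 changes were 0.31 ± 0.15 and 0.10 ± 0.09, and the adjusted p-values 0.447 and 0.562 (edgeR).

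Whole animals were sequenced, so fewer cells of a type and less RNA per cell cannot be told apart. Markers of the intestine, the oocytes, the adult cuticle and muscle were therefore summed beside the vitellogenin genes, and no marker of these lists was at 0 counts in any library. The 9 intestine markers summed to 4120 to 4850 CPM in U18A mutants and to 4240 to 4260 CPM in U18A controls, and to 1190 to 1240 CPM in U13A mutants and 897 to 1250 CPM in U13A controls. Both pairs overlapped. edgeR called none of the 9 in either contrast, with none at an unadjusted p under 0.05 in U13A and 3 in U18A, and DESeq2 called none. In U18A 7 of the 9 were on the higher side, with a median log2 change of 0.11. Mutant libraries all lay above the controls for nhx-2 (0.26 ± 0.08, adjusted p 0.0528), pept-1 (0.24 ± 0.08, 0.0675) and ifb-2 (0.22 ± 0.08, 0.0996), named after their values were seen. The same held for act-5 (0.11 ± 0.09, 0.534). For ges-1 the mutant libraries all lay below the controls (-0.20 ± 0.13, 0.43), and elt-2 was on the lower side with overlap (-0.16 ± 0.17, 0.637). These adjusted p-values are from edgeR. Among all genes of that contrast 12.3% had every mutant library above the controls, and 21.5% had an unadjusted p under 0.05. The aspartic protease gene asp-1 alone gave 46.6% to 57.3% of the summed intestine level of a library. Without it the other 8 summed to 1980.0 to 2070.0 CPM in U18A mutants and to 1840.0 to 1930.0 CPM in U18A controls, without overlap. Divided by the sum of all 9, the vitellogenin level was 1.45, 1.40 and 1.64 in U18A mutants A, B and C, against 0.922, 0.941 and 1.16 in U18A controls, without overlap. Divided by the sum without asp-1 it was 3.38, 3.07 and 3.41 in U18A mutants, against 2.13, 2.14 and 2.56 in U18A controls. In U13A the ratio to all 9 was 1.71, 1.52 and 1.40 in mutants, against 1.36, 1.45 and 1.22 in controls, with overlap. The part of intestinal content in the vitellogenin result was not tested.

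Oocyte and eggshell markers were on the higher side together with the vitellogenin genes. The 12 markers summed to 3820 to 4210 CPM in U18A mutants and to 3160 to 3630 CPM in U18A controls, and to 836 to 917 CPM in U13A mutants and 701 to 794 CPM in U13A controls, without overlap in either contrast. In U13A the body wall muscle markers below were apart too, and so were the sums of 2 lists above, with the mutant higher. The lipid loading and fatty acid genes summed to 1130 to 1170 CPM in U13A mutants and 891 to 954 CPM in U13A controls. The uptake genes summed to 335 to 353 CPM in U13A mutants and 285 to 331 CPM in U13A controls. All 12 oocyte and eggshell markers were on the higher side in both contrasts, with median log2 changes of 0.23 in U13A and 0.24 in U18A. In U18A edgeR called 2 as higher, perm-2 and puf-5, 9 had an unadjusted p under 0.05, and DESeq2 called 1 (perm-2). Among all genes of that contrast edgeR called 2.29% as higher, 21.5% had an unadjusted p under 0.05, and DESeq2 called 5.72%. In U13A edgeR and DESeq2 called none and 3 had an unadjusted p under 0.05, against 12.6% of all genes. perm-2, an eggshell permeability barrier protein, averaged 249 ± 20.1 CPM in U18A mutants and 196 ± 21.9 CPM in U18A controls (SD, n = 3 each; log2 0.34 ± 0.09, adjusted p 0.0252, edgeR), and leaving out 1 library took the adjusted p to between 0.00877 and 0.179. puf-5, an RNA-binding protein of oocytes, averaged 309 ± 15.9 CPM in U18A mutants and 251 ± 24.7 CPM in U18A controls (SD, n = 3 each; log2 0.30 ± 0.09, adjusted p 0.0422, edgeR), and there the range was 0.0383 to 0.273. The part of these markers in the vitellogenin result was not tested.

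The adult cuticle collagens col-7 and col-19 summed to 582 to 785 CPM in U18A mutants and to 581 to 623 CPM in U18A controls, and to 50.1 to 59.1 CPM in U13A mutants and 44.6 to 61.0 CPM in U13A controls. Both pairs overlapped. edgeR and DESeq2 called neither gene in either contrast, with 1 of the 2 at an unadjusted p under 0.05 in each. In U13A the log2 change was -0.70 ± 0.23 for col-7 (adjusted p 0.198) and 0.15 ± 0.14 for col-19 (adjusted p 0.708), and in U18A it was 0.25 ± 0.13 (0.321) and 0.26 ± 0.10 (0.124), by edgeR. In U13A 1 gene was called as lower without control C or with no count filter, and in U18A both were called as higher without mutant C or with no count filter. Of 4 body wall muscle and 2 pharyngeal muscle markers none was called by edgeR or DESeq2 in either contrast, and none had an unadjusted p under 0.05. The body wall markers summed to 1440.0 to 1470.0 CPM in U13A mutants and to 967 to 1430.0 CPM in U13A controls, without overlap, with control C lowest and 4 of 4 markers on the higher side (median log2 change 0.14). They summed to 5310.0 to 5700.0 CPM in U18A mutants and to 5220.0 to 6100.0 CPM in U18A controls, with overlap. The pharyngeal markers summed to 27.5 to 33.4 CPM in U13A mutants and 25.9 to 32.8 CPM in U13A controls, and to 106 to 123 CPM in U18A mutants and 106 to 124 CPM in U18A controls, with overlap in both.

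**Figure D4:**
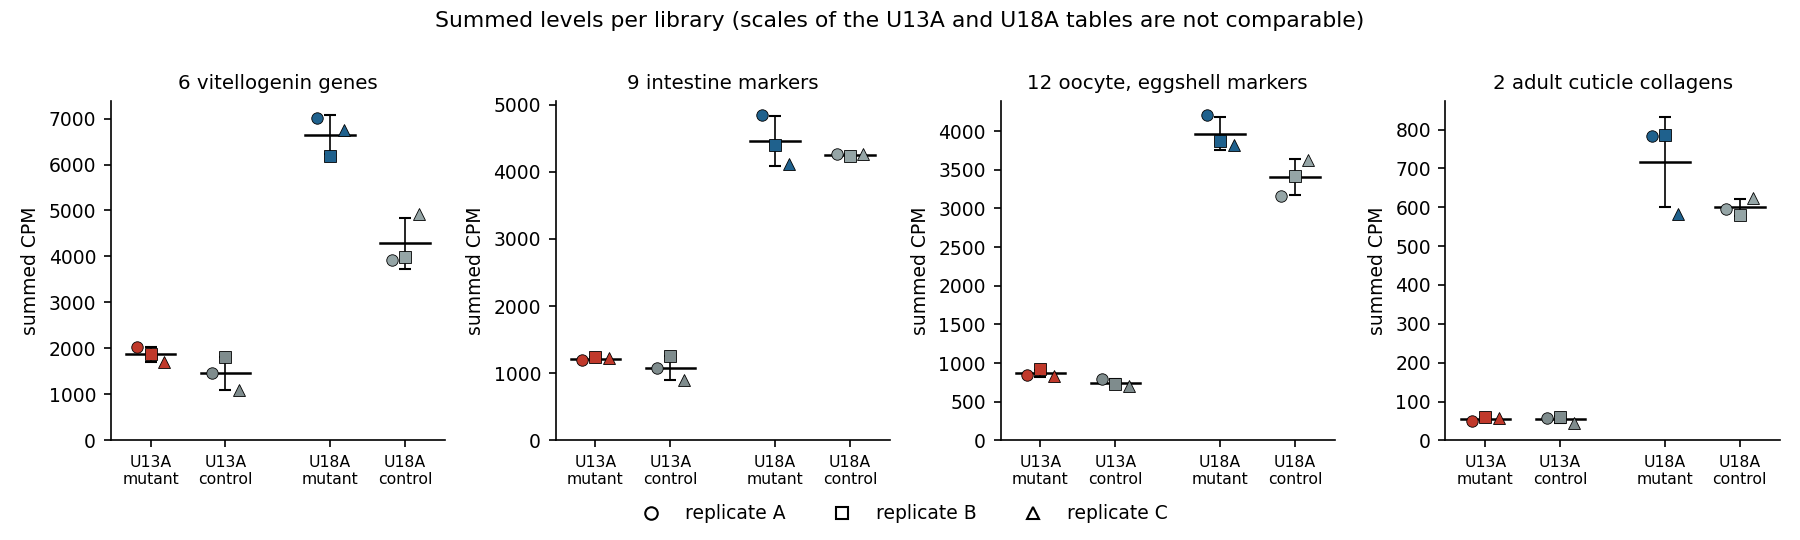
Summed CPM (vertical axis) of the 6 vitellogenin genes and of the intestine, oocyte and eggshell, and adult cuticle markers in every library of the 4 groups (horizontal axis), with replicate letters as symbols, means as lines and SD as bars (n = 3). The U18A mutants lie above their controls for the vitellogenin genes and the oocyte and eggshell markers, whereas the sums of intestine markers and of cuticle collagens overlap. Without asp-1 the intestine sum was 1980 to 2070 CPM in U18A mutants and 1840 to 1930 CPM in U18A controls, without overlap. The U13A mutants too lie above their controls for the oocyte and eggshell markers.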

How the data were processed

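Per the submitters' processing notes, cutadapt 1.9, Bowtie2 2.3.4.3 and featureCounts of Subread 1.6.2 were used. The build, the annotation, the strand setting and the treatment of reads with several matches are not given in the sources used here. The authors deposited raw read counts per gene in 2 tables, 1 per contrast, with 6 libraries each and no unused columns. Each table was fitted whole with edgeR 4.0.16 in R 4.3.3 (filterByExpr at 10 counts and a total of at least 15, TMM, robust glmQLFit, glmQLFTest, 2-sided). P-values were adjusted over all genes tested (Benjamini-Hochberg, threshold 0.05), and the SE is the absolute log2 change over the square root of F. The difference of the contrasts came from 1 fit to all 12 libraries. CPM were computed from the deposited counts and TMM-scaled library sizes, and CPM per kilobase from union exon lengths. Intervals are 95% Wilson intervals and cover counting error only. The procedure was tested on simulated data with the same dispersion for every gene and changes larger than those of the vitellogenin genes. That test thus does not bear on changes of the size seen here. Intervals used scipy 1.17.1, and permutation tests of shares were exact. A ratio to the intestine sum without asp-1 and leaving out libraries for the shares were added after seeing the data.

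The members, the lists and the tests were chosen with earlier results of these data known. The named genes are the 6 members, any gene of the pathway lists past the threshold in either contrast, rme-2, unc-62, ceh-60, elt-2 and dsc-4, and the 5 genes most like the summed vitellogenin level. fasn-1, fat-7, perm-2, puf-5 and the named intestine, cuticle and muscle markers were named after their values were seen. The alternatives tried were DESeq2 1.42.0, the replicate letter as a block, RLE scaling, keeping every gene, keeping genes with a mean of at least 10 counts, leaving out the 10 most abundant entries, summing close paralogs, 1 fit to all 12 libraries and leaving out each library in turn. Shared sequence between members was not analysed here.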

Additional observations from a re-analysis of the deposited data

Results flagged for a closer look

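The share of vit-3 in the summed vitellogenin counts lay above the controls in every U13A mutant library and below the controls in every U18A mutant library. The level of vit-3 itself was on the higher side in both mutants. Its log2 changes were 0.60 in U13A and 0.25 in U18A, and neither passed (adjusted p 0.178 and 0.146, edgeR). How reads that match several paralogs were assigned is not given, so the counts of single members are uncertain. For the vit-3 share, the U13A value minus the U18A value was 1.26 percentage points, and this difference was not tested. The edgeR fit of fold changes called no vitellogenin gene for a difference between the contrasts (adjusted p 0.60 to 0.89). The log2 change of fasn-1 was 0.87 higher in U13A than in U18A (adjusted p 0.00636, edgeR). Both results compare tables that were made separately, and an effect of the table cannot be told apart from one of the mutant. The strain backgrounds also differ between the contrasts, and the U13A mutant carries a further lin-41 change. Effects of these cannot be told apart from those of the let-7 changes.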

How the results depend on the processing

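The count of vitellogenin genes called in U13A was 0, and it was 3 with no count filter, 3 with the replicate block, 1 with DESeq2 and 1 with all 12 libraries in 1 fit. Leaving out 1 library gave 0 to 3 in U13A and 2 to 6 in U18A, where the count was 4. The replicate block gave 6 in U18A and 0 for the difference. Same-letter deviations correlated at 0.0673, -0.0755 and 0.244 in U13A and at 0.118, -0.0249 and 0.225 in U18A for A, B and C. With 3 libraries per group these values cannot decide whether the letters pair the samples. With the block 2 genes of lipid loading and fatty acid synthesis passed in U13A, against 0 without it. Over all genes the block gave 393 calls in U13A, against 187, and 1429 in U18A, against 1036. Some values near 0 changed sign. The U13A log2 change of unc-62 was 0.01 with no count filter and with all 12 libraries in 1 fit, and -0.06 to 0.08 leaving out 1 library. Leaving out 1 library also gave -0.52 to 0.01 for ceh-60 in U13A, -0.24 to 0.00 for elt-2 in U18A, and -0.09 to 0.33 for vit-1 and -0.08 to 0.48 for vit-4 in the difference. The causes were not tested. Over all genes, U13A calls were 543 with no count filter, 431 with all 12 libraries in 1 fit and 37 to 352 leaving out 1 library. U18A calls were 698 with all 12 libraries in 1 fit and 548 to 1109 leaving out 1 library. Difference calls were 473 with no count filter and 176 to 342 leaving out 1 library, against 277.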
